A study of Mus musculus with 24 samples.

Results

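The Rab proteins are small GTPases that mark the membranes of the cell and steer vesicles between them. A Rab protein is given a lipid anchor by a prenyl transferase, is switched on by an exchange factor (GEF), recruits effectors that tether or move the membrane while it is bound to GTP, and is switched off by a GTPase-activating protein (GAP), after which GDP dissociation inhibitor carries it back through the cytosol. In skeletal muscle the family is best known for the traffic of the glucose transporter GLUT4, which insulin and contraction bring to the surface of the fibre. The family was taken as every array probe whose gene symbol is RAB followed by a number and at most 2 further letters or digits, with effector symbols left out. This gave 65 probes of 56 genes, out of 26423 probes and 17742 named genes. It was chosen by a measured value, the higher level of Rab15 in Hira CKO muscle, so that value is given below as a description with no test.

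The samples were tibialis anterior muscles, from the front of the lower leg, of 8 mice aged 6 weeks on a mixed C57BL6/J;129S1/SvImJ background, measured on 24 1-colour arrays (3 arrays of each animal). All animals carried Myf6 cre/+, a Cre recombinase at the locus of a muscle regulatory factor that is active in muscle fibres. The 4 controls were Hira flox/+, with a floxed and an intact allele of Hira, which encodes a chaperone that places histone H3.3 in chromatin. The 4 Hira CKO (conditional knockout) animals were Hira flox/-, with a floxed and a null allele. Cells without Cre activity therefore also differed between the groups, in the allele beside the floxed one, intact in controls and null in Hira CKO animals. The tissue was whole muscle, in which fewer cells of a type and less RNA per cell cannot be told apart. The 6 muscle fibre markers measured were bright in every animal, and 2 of them fell, Acta1 (skeletal α-actin) by 0.55 (limma, adjusted p = 0.00199) and Ckm (muscle creatine kinase) by 0.28 (adjusted p = 0.0442) on the log2 scale. The Ckm call was lost in 6 of the 8 fits that left out an animal, all but those without control animal 1 or Hira CKO animal 4. Over all genes, each at its brightest probe, 10.3% were called lower by the same test. The probe for Hira averaged 495 ± 48.9 (SD, n = 4) in controls and 558 ± 38.9 (n = 4) in Hira CKO animals, a log2 change of 0.17 (SE 0.087; limma, adjusted p = 0.193), and whether it lies in the deleted part is not given in the sources used here.

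Values are normalized intensities, in arbitrary units set by the brightness of a probe, given as the mean of the 3 arrays of an animal. Levels of different probes are not compared with each other, since brightness depends on the probe. A change is the mean of the Hira CKO animals minus that of the controls on the log2(intensity + 16) scale, fitted by limma over all probes, and a probe was called where its Benjamini-Hochberg adjusted p over all 26423 probes was under 0.05.

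The start of the Rab15 gene and those of 3 further members with large changes are shown here, since the study concerns a chromatin factor and the data bear on transcript levels. Each window runs from 250 bases before to 50 bases after a gene start of RefSeq (GRCm38.p6), written 5′ to 3′ on the strand of the gene. Each E-box is in capitals (CANNTG, the general motif of bHLH factors, of which the myogenic ones are only a part). The windows are chr12:76822475-76822774 (minus strand) for Rab15, chr17:53478984-53479283 (plus strand) for Rab5a, chr10:10558158-10558457 (minus strand) for Rab32 and chr14:52279346-52279645 (minus strand) for Rab2b.
Rab15: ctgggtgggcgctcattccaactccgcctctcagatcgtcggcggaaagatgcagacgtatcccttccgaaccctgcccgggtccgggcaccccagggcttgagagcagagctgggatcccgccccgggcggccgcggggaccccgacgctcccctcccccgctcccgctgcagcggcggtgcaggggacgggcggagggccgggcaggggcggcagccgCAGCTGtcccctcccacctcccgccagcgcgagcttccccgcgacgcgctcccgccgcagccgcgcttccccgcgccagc
Rab5a: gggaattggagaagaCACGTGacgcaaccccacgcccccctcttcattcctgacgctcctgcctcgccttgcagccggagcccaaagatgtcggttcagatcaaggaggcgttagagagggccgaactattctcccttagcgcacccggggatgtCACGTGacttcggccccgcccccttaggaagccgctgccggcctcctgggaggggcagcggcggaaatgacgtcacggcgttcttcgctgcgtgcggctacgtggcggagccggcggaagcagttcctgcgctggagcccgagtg
Rab32: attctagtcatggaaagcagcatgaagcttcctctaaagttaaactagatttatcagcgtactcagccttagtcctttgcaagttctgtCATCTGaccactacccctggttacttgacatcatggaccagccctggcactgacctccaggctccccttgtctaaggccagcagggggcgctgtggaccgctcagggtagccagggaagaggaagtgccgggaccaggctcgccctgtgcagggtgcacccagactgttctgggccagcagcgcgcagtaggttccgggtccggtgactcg
Rab2b: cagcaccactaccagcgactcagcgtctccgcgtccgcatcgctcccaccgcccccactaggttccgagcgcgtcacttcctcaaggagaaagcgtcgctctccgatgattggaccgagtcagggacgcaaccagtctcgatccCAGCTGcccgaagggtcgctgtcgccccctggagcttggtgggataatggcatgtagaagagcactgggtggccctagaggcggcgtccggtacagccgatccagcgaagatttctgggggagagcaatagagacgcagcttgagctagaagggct
The Rab15 window was 76.3% G and C, with 38 CpG dinucleotides, 1 E-box and 4 GC boxes (GGGCGG on either strand). RefSeq lists 3 further starts of Rab15, each with 2 E-boxes in its window, and the array does not say which start a transcript used. The Rab5a window was 65.3% G and C, with 30 CpG dinucleotides, 2 E-boxes, 1 GC box and 1 cAMP response element (TGACGTCA). The Rab32 window was 57.3% G and C, with 10 CpG dinucleotides and 1 E-box. The Rab2b window was 62.0% G and C, with 25 CpG dinucleotides, 1 E-box and 1 GC box.

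RefSeq starts were found for 45 of the 56 genes, giving 57 windows. An E-box lay in 70.2% of them and in 72.3% of the 32841 windows of all genes. That wider set, of 27018 RefSeq genes, was not limited to the genes on the array. A GC box lay in 66.7% of the family's windows and in 35.7% of all windows, and the exact letters TATAAA in 5.26% and 13.6%. The cAMP response element lay in 3.51% and 1.79%. The median G and C content was 61.0% in the family and 52.7% in all windows, with a median of 19 and 7 CpG dinucleotides. Motifs were searched on both strands and each was counted on its own, so matches of different motifs may share bases. These shares describe the letters of the windows and say nothing of what binds there.

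Rab15, a Rab of early and recycling endosomes that is abundant in brain and has been studied for its control of receptor recycling in cultured cells, was the member with the largest change. Its intensity was 895, 729, 741 and 1202 in the 4 control animals and 5053, 3856, 3363 and 2299.6 in the 4 Hira CKO animals. Every Hira CKO animal lay above every control, and the groups did not overlap on single arrays either: the 12 control arrays ran from 683 to 1227 and the 12 Hira CKO arrays from 2197 to 5256. The means were 892 ± 220.0 (SD, n = 4) and 3643 ± 1143 (n = 4), a log2 change of 1.99 (SE 0.23, 95% interval 1.47 to 2.50), or 3.96-fold. Only 8 of the 26423 probes had a larger increase. With each animal left out in turn the change ran from 1.81 to 2.19. Since Rab15 was chosen for this rise, the interval, the lack of overlap and this range describe it and do not test it.

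The spread of Rab15 lay between animals. The SD on the log2 scale was 0.33 between controls and 0.47 between Hira CKO animals, against 0.07 between the arrays of an animal. Among the other 64 family probes the median SD was 0.11 in controls, 0.11 in Hira CKO animals and 0.12 between arrays of an animal, and 1 probe, of Rab5c, exceeded Rab15 in either group. The 20 probes listed next to it in the deposited table had a median change of -0.09.

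**Figure D1:**
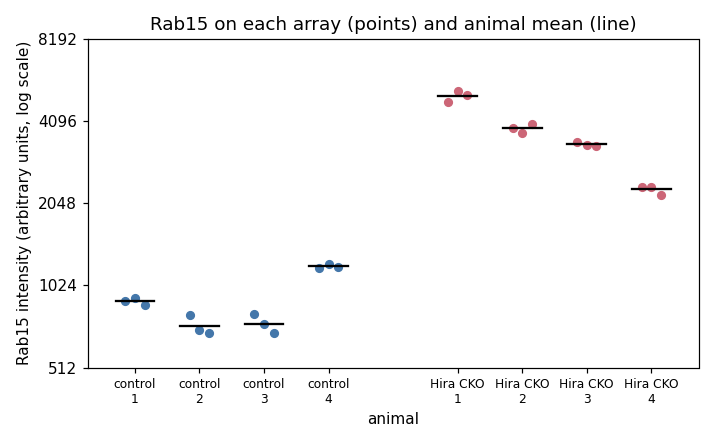
Intensity of the Rab15 probe (arbitrary units, log axis) on each of the 24 arrays, grouped by animal, with a line at the mean of each animal. The 12 Hira CKO arrays, from 2197 to 5256, all lie above the 12 control arrays, from 683 to 1227, and the arrays of an animal lie close together.

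Besides Rab15, 6 probes of the family were called higher and 6 lower in Hira CKO muscle. That is 18.8% of 64 probes, beside 20.6% of all probes on the array (10.5% higher and 10.0% lower), so the share of Rab probes called was near the background. Nothing is read from this count, since the family was taken up on the same contrast. The animals of the groups did not overlap for 18 of the 64 probes (28.1%), 9 higher and 9 lower, beside 24.8% of all probes. Single arrays did not overlap for 5 (4 higher and 1 lower), beside 6.77% of all probes. Without control animal 3, the number called higher was 3 of the 64 (4.69%), beside 7.05% of all probes in the same fit.

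The median change was 0.05 over the family and 0.01 over all probes. Rab15 lay 1.94 above the median of the other family probes on the log2 scale and 1.21 above Rab5a, the next highest. It was the only family probe that changed by at least 1 on the log2 scale, a size reached by 1.77% of all probes (467). Another 5 changed by at least 0.5, namely Rab5a, Rab33b, Rab20, Rab2b and Rab32. The spread of the family resembled that of the array as a whole. Its 25th and 75th percentiles of change were -0.14 and 0.23, beside -0.15 and 0.17. Its 5th and 95th were -0.48 and 0.42, beside -0.51 and 0.49. A change of 0 or less was found for 36.9% of the family's probes and 47.9% of all probes, a difference that was not tested.

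**Figure D2:**
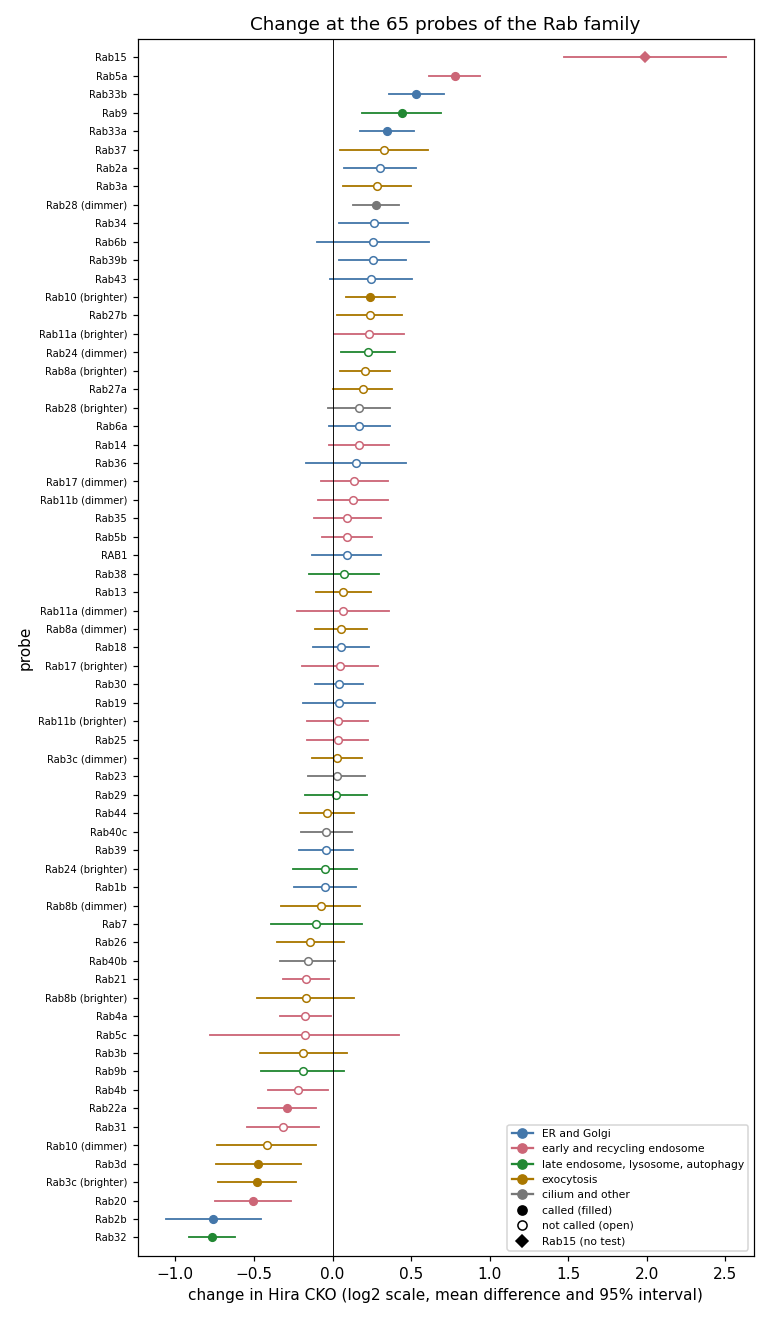
Log2 change (Hira CKO minus control, 4 animals each) of the 65 Rab probes in order of change, with lines for the 95% interval, colours for the role of the Rab, filled points for called probes and a diamond for Rab15, which was not tested. Rab15 at 1.99 stands apart from Rab5a at 0.78, and the lowest probes are Rab32 at -0.77 and Rab2b at -0.76.

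**Figure D3:**
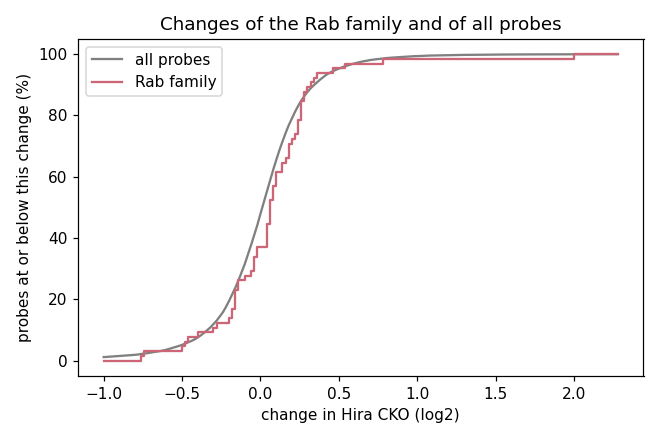
Cumulative share of probes (percent) against log2 change, for the 65 Rab probes and for all 26423 probes, drawn from a change of -1 upward. The curves are nearer each other toward the ends than in the middle, where the medians are 0.05 and 0.01. At a change of 0.02, 36.9% of the Rab probes and 51.4% of all probes lie at or below it. The Rab curve ends in the single step of Rab15 at 1.99.

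Of the 18 probes of early and recycling endosome Rabs besides Rab15, 1 was called higher, Rab5a, and 2 lower, Rab20 and Rab22a, with a median change of 0.04. Over all probes, 10.5% were called higher and 10.0% lower. Rab5a, which drives the fusion of early endosomes, measured 4042, 3624, 3630.4 and 3809 in controls and 6904, 6041, 6398 and 6687 in Hira CKO animals. The groups were far apart relative to their spread, and the change was 0.78 (SE 0.072; limma, adjusted p = 0.000104). Its paralogs were not called, with changes of 0.09 for Rab5b and -0.18 for Rab5c. Rab5c was also the most variable member, with values from 1104 to 2227 in controls and from 941 to 2090.4 in Hira CKO animals.

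Rab20, found on phagosomes and early endosomes and known as a hypoxia-induced gene, measured 929, 976, 774 and 802 in controls and 614, 529.8, 579.8 and 713 in Hira CKO animals. All 4 Hira CKO animals were below all controls, with a change of -0.51 (SE 0.109; limma, adjusted p = 0.0101). Rab22a, an endosomal Rab that acts in recycling, measured 9338, 11435, 10301 and 9606 in controls and 8521, 8691, 7989 and 7895 in Hira CKO animals. The groups did not overlap, but the change was small, -0.29 (SE 0.083; limma, adjusted p = 0.0334), and the call was lost in 6 of the 8 fits that left out an animal. Adjusted p was 0.0795 without control animal 2, 0.0835 without control animal 3 and from 0.0535 to 0.0722 without each Hira CKO animal in turn.

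The remaining endosomal members were not called, with changes from -0.31 to 0.23. They include the Rab11 genes, which run the recycling endosome: Rab11a had changes of 0.23 and 0.07 on its 2 probes and Rab11b 0.03 and 0.13. Rab4a and Rab4b, which act in fast recycling, had changes of -0.17 and -0.22, with adjusted p = 0.123 and 0.0993 by limma although their animals did not overlap. Rab21 (-0.17) and Rab31 (-0.31, adjusted p = 0.0572 by limma), both relatives of Rab5, were likewise lower in every Hira CKO animal without passing the threshold.

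Among the 16 probes of Rabs of the endoplasmic reticulum and Golgi, 2 were called higher and 1 lower (18.8%), beside 20.6% of all probes. Their median change was 0.16. Rab33b, a Golgi Rab that binds the autophagy protein Atg16l1, measured 2401, 2496, 2436 and 2552 in controls and 3701, 3457, 3243 and 3970.4 in Hira CKO animals. The controls lay within a narrow band and all Hira CKO animals above it, with a change of 0.53 (SE 0.078; limma, adjusted p = 0.00139). Rab33a, its paralog, measured 161, 180.2, 161 and 156 in controls and 226, 191, 222 and 215 in Hira CKO animals, a change of 0.35 (SE 0.078; limma, adjusted p = 0.0125). Both Rab33 genes therefore passed the test in the same direction, with no overlap of animals.

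The Rab2 genes had changes of opposite sign. Rab2b, which acts between the endoplasmic reticulum and Golgi, measured 2226, 2412, 2716 and 1858 in controls and 1636, 1275, 1418 and 1133 in Hira CKO animals. It fell by 0.76 (SE 0.136; limma, adjusted p = 0.00412) with no overlap. Rab2a measured 17439.8, 19491, 21242 and 21764 in controls and 26407, 27642, 22428 and 22272 in Hira CKO animals. Every Hira CKO animal was higher, yet the change of 0.30 (SE 0.103) had an adjusted p = 0.0635 by limma and was not called. The difference between the 2 genes was not tested. The rest of the group, which includes the probe with the symbol RAB1 (0.09), Rab1b (-0.05), Rab6a (0.17) and Rab6b (0.26), ranged from -0.05 to 0.26, none called.

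Of the 17 probes of Rabs of exocytosis, 1 was called higher and 2 lower (17.6%), beside 20.6% of all probes. Their median change was 0.03. The Rab3 genes encode Rabs of regulated secretion. Rab3d measured 921, 942, 1062 and 795 in controls and 823, 585, 668 and 609 in Hira CKO animals. It was the only called member whose animals overlapped, with a change of -0.47 (SE 0.120; limma, adjusted p = 0.0214). That call was lost without control animal 2 or 3 or Hira CKO animal 2 or 4, with adjusted p from 0.0505 to 0.0616. The brighter of the 2 Rab3c probes measured 334, 490.3, 427 and 365 in controls and 275, 281, 289 and 283 in Hira CKO animals, a change of -0.48 (SE 0.111; limma, adjusted p = 0.0135). Its Hira CKO animals were close to each other and below all controls. With array repeat 1 only, the change was -0.40 and the call was lost (adjusted p = 0.0662). Rab3a changed by 0.28 (limma, adjusted p = 0.0632) and Rab3b by -0.19, neither called.

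Rab8a, Rab10, Rab13 and Rab14 are the Rabs linked to GLUT4 vesicles in fat and muscle cells. The brighter Rab10 probe measured 27863, 29171, 26850.4 and 28819 in controls and 34033, 32145, 31762 and 35409 in Hira CKO animals. The groups did not overlap, with a change of 0.24 (SE 0.069; limma, adjusted p = 0.0350), the call of the family nearest to the threshold. It was lost in 7 of the 8 fits that left out an animal, with adjusted p from 0.0544 to 0.103, the highest without control animal 3. The brighter Rab8a probe changed by 0.21 (limma, adjusted p = 0.0705) and was not called, although its animals did not overlap. Rab13 changed by 0.07 and Rab14 by 0.17, neither called. Of the 17 genes of a list on GLUT4 traffic, 1 rose, Rab10, and 2 fell, the vesicle SNARE Vamp2 by 0.98 and its partner at the membrane Stx4a by 0.41. That is 17.6% of the list, beside 21.2% of all genes taken by their brightest probe. The GLUT4 gene Slc2a4 changed by -0.12, and the GAPs that insulin and contraction act on, Tbc1d4 and Tbc1d1, changed by -0.34 and 0.15. None of these 3 passed the test.

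Late endosome, lysosome-related organelle and autophagy Rabs had 8 probes, with 1 called higher, 1 lower and a median change of -0.01. Rab32, which works in the biogenesis of lysosome-related organelles such as the melanosome and also binds protein kinase A at mitochondria, measured 237, 238, 239 and 245 in controls and 137, 143, 128 and 129.7 in Hira CKO animals. It fell by 0.77 (SE 0.066; limma, adjusted p = 6.67e-05), with the tightest controls among the called members. Its relative Rab38 changed by 0.07 and Rab29 by 0.02, and neither was called. Rab9, which returns mannose 6-phosphate receptors from late endosomes to the Golgi, measured 2926, 1995, 2423 and 2698 in controls and 3527, 3329, 3457 and 3252 in Hira CKO animals. The groups did not overlap, with a change of 0.44 (SE 0.113; limma, adjusted p = 0.0215). Adjusted p was 0.0552 without control animal 3 and 0.0597 without Hira CKO animal 1. Rab7, the main Rab of late endosomes and lysosomes, changed by -0.10 and was not called.

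The last 5 probes hold Rabs of the cilium and others, with 1 called higher (20.0%), beside 20.6% of all probes called. The dimmer Rab28 probe, for a Rab known from the cilium of photoreceptors, measured 8003, 7797, 7545 and 7821 in controls and 9383, 9869, 8928 and 9597 in Hira CKO animals. All Hira CKO animals were above all controls, with a change of 0.28 (SE 0.066; limma, adjusted p = 0.0153). Adjusted p was 0.0504 without control animal 3 and 0.0508 without Hira CKO animal 2.

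**Figure D4:**
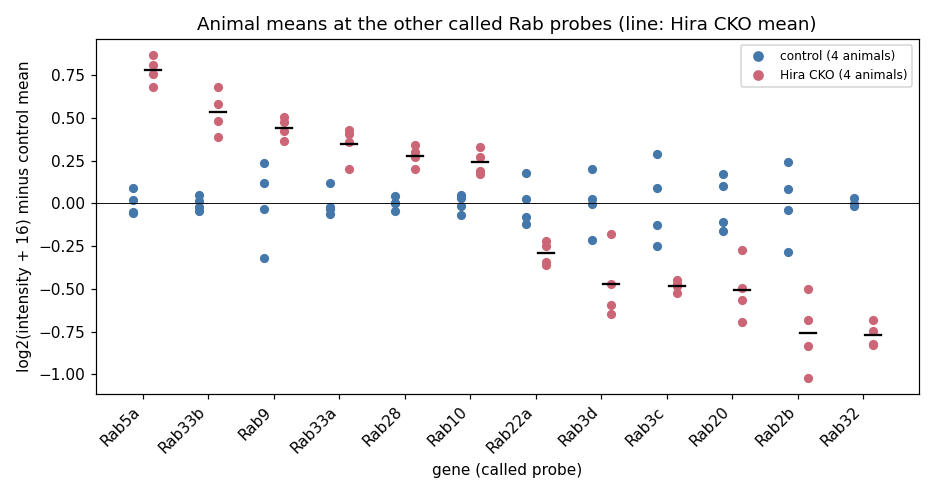
Log2(intensity + 16) of each animal, as the difference from the mean of the controls, for the 12 called Rab probes other than Rab15 (4 control and 4 Hira CKO animals each, with a line at the Hira CKO mean). The animals of the groups are apart for every one of these probes but Rab3d.

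The 52 probes that were not called had changes from -0.42 to 0.33, and 22 of them lay within 0.1 of 0. For 45 of the 52, the 95% interval of the change stayed within 0.5 of 0 on either side, and for the other 7 it reached 0.5 or more. Just inside the threshold were the brighter Rab10 probe and Rab22a (adjusted p = 0.0350 and 0.0334 by limma), and just outside were Rab31 and the dimmer Rab10 probe (0.0572 and 0.0619).

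Probes of a gene did not always move together. Of the 9 genes with 2 probes, 6 had changes of the same sign and 3 of opposite sign, and in no gene were both probes called. For Rab10 the dimmer probe measured 2562, 2850.4, 3366 and 3710.1 in controls and 2057, 2814, 2423 and 2028 in Hira CKO animals, a change of -0.42 (limma, adjusted p = 0.0619) against 0.24 on the brighter probe. For Rab3c the dimmer probe changed by 0.03 against -0.48, with values from 219 to 253 in controls and from 229 to 251 in Hira CKO animals, which overlap fully. For Rab24 the brighter probe changed by -0.05 and the dimmer by 0.23. The Rab28 probes changed by 0.17 (not called) and 0.28 (called). For 5 of the 9 genes (Rab11a, Rab11b, Rab17, Rab24 and Rab3c), the sign of 1 probe turned under at least 1 alternative setting or with 1 animal left out, and that probe was within 0.1 of 0 in each case. The calls for Rab10, Rab3c and Rab28 hold for 1 probe of each gene, and the transcripts that each probe detects are not given in the sources used here.

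**Figure D5:**
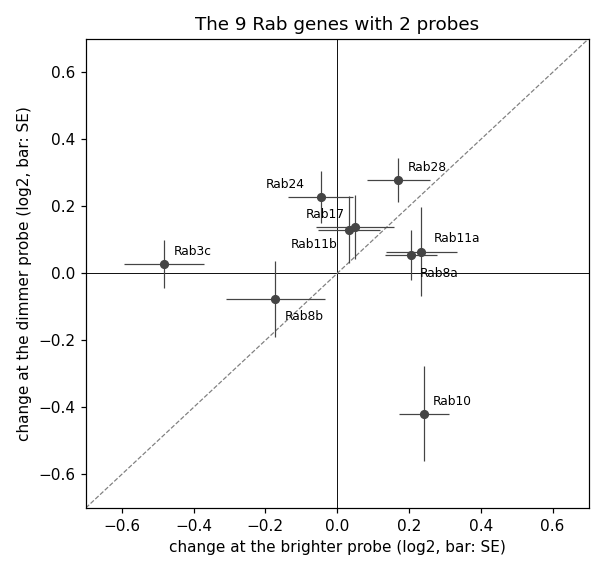
Log2 change of the brighter probe (horizontal axis) against that of the dimmer probe (vertical axis) for the 9 Rab genes with 2 probes, with bars for the SE and a dashed line where the changes are equal. Rab10, Rab3c and Rab24 lie in the quadrants of opposite sign and the other 6 genes in those of the same sign.

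The proteins that load and switch Rabs were counted from 4 lists of partners, with the brightest probe for each gene. Brightness was the mean over the animals of both groups, so a change in Hira CKO animals could affect which probe was counted. Of 151 partners listed, 130 were measured, of which 12 were called higher and 23 lower (26.9%), with a median change of -0.02. By the same rule, 21.2% of all 17742 genes were called, 11.0% higher and 10.3% lower. Without control animal 3 or without Hira CKO animal 1 the number called lower dropped to 14. The share of all probes called lower dropped as well, from 10.0% to 6.88% without control animal 3 and 7.23% without Hira CKO animal 1. These shares count probes, while the partners are counted by gene, and shares by gene are not given for these fits.

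In the lipid anchor and recycling machinery, 2 of 8 genes were called higher and 1 lower (37.5%), beside 21.2% of all genes. Rabggtb, the β subunit of the Rab prenyl transferase, rose by 0.45 (limma, adjusted p = 0.00954), from 16383 ± 2043 to 22349.9 ± 1117 (SD, n = 4 each). Rabggta, the α subunit, fell by 0.41 (limma, adjusted p = 0.00778), from 455 ± 21.2 to 339 ± 34.0 (n = 4 each). The animals of the groups were apart for both, so the 2 subunits of this enzyme passed the test in opposite directions. Rabac1, a membrane protein that binds prenylated Rabs, rose by 0.40 (limma, adjusted p = 0.0136).

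Among 37 exchange factor genes, 3 were called higher and 8 lower (29.7%), beside 21.2% of all genes. None of the 3 higher calls was kept without control animal 3, and 1 was kept without each other animal in turn. Of the 8 lower calls, 5 were kept without control animal 3 or Hira CKO animal 1. Trappc9, a subunit of the TRAPP II complex at the Golgi, had a change of -1.66 on its brightest probe (limma, adjusted p = 7.83e-05), where it measured 2912, 3174, 3351 and 2878 in controls and 914, 1245, 1060.2 and 755 in Hira CKO animals. Its other 3 probes changed by -0.44 (called), -0.40 and 0.00. Hps4, which with Hps1 forms the exchange factor of Rab32 and Rab38, fell by 0.89 (limma, adjusted p = 0.000109), from 701 ± 52.1 to 374 ± 29.9 (SD, n = 4 each). Hps1 itself changed by 0.22 (limma, adjusted p = 0.118) and was not called. Dennd4c, an exchange factor of Rab10, fell by 0.61 (limma, adjusted p = 0.00174). Rin1, an exchange factor of Rab5, fell by 0.56 (limma, adjusted p = 0.0274), a call lost without control animal 2 or 3 or Hira CKO animal 1.

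Among 39 GAP genes, 6 were called higher and 8 lower (35.9%), beside 21.2% of all genes. Of the 8 lower calls, 5 were kept without control animal 2 or 3 and without Hira CKO animal 1, 2 or 3. Tbc1d25, a GAP of Rab33b in cultured cells, rose by 0.81 (limma, adjusted p = 0.00227), from 980.1 ± 186 to 1718 ± 185 (SD, n = 4 each), in the same direction as Rab33b. The brightest Rabgap1l probe had a change of 0.87 (limma, adjusted p = 0.000359), while another of its probes had -1.26 and was called lower. Tbc1d10b rose by 0.61 (limma, adjusted p = 0.0111) and Rabgap1 fell by 0.61 (limma, adjusted p = 0.00159).

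Of 46 effector genes, 1 was called higher and 6 lower (15.2%), beside 21.2% of all genes. Of the 6 lower calls, 3 were kept without control animal 3 or 4 and without Hira CKO animal 1. Among the 5 effectors of the Rab11fip family measured, which bind Rab11, Rab11fip3 and Rab11fip5 fell by 0.78 and 0.58 (limma, adjusted p = 0.00104 and 0.00178). The other 3, Rab11fip1, Rab11fip2 and Rab11fip4, changed by 0.08, 0.20 and 0.07 and were not called. Optn (optineurin), which binds Rab8, fell by 0.63 (limma, adjusted p = 0.00067). Rep15, named as an effector of Rab15, changed by -0.14 (limma, adjusted p = 0.256) and was not called, with 681 ± 44.3 in controls and 618 ± 46.4 in Hira CKO animals (SD, n = 4 each). The only effector called higher was Unc13d, a partner of Rab27a in granule release, with 0.52. Of 8 Rab-like genes and 4 genes of the LRRK kinases and their phosphatase, which act on the phosphorylation of Rabs, none passed limma's test at the adjusted threshold on its brightest probe, and 1 gene of each list had an unadjusted p under 0.05 there. The other probe of a Rab-like gene, Rabl2, was called lower, with -0.48 (limma, adjusted p = 0.0221), against -0.11 on the probe counted. In controls this other Rabl2 probe was the brighter, with a mean of 2373 against 2284. At an adjusted p = 0.0688, Lrrk1 had a change of 0.98, from 4110 ± 1724 to 8228 ± 2720 (SD, n = 4 each).

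Rab15 lies on chromosome 12. The 5 nearest named genes with a probe on each side, 10 in all, had 11 probes. Of these, 2 were called lower and 0 higher by limma, and 0 were higher at an unadjusted p under 0.05. Over all probes on the array, 10.0% were called lower and 10.5% higher. Fut8, a fucosyltransferase, fell by 1.19 (limma, adjusted p = 0.000862), from 601 ± 102 to 259 ± 59.2 (SD, n = 4 each). Churc1, the nearest gene on its side, fell by 0.41 (limma, adjusted p = 0.0455), a call lost in 6 of the 8 fits that left out an animal. The nearest gene on the other side, Fntb, changed by -0.09. Ppp1r36 had the highest change of the neighbours, 1.04, with a SE of 0.534 and an adjusted p = 0.195 by limma.

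Markers of other cells were measured beside these changes. The 7 neuron and endocrine markers measured, listed because Rab15 and the Rab3 genes are abundant there, summed to between 2447 and 2778 in controls and between 2479 and 3139.6 in Hira CKO animals. The sums overlap, with 1 marker called higher (Elavl4, 0.59) and 1 lower (Stmn2, -0.68). Of 8 endothelial markers, 5 were called lower, and 3 of these calls (Egfl7, Emcn and Kdr) were kept with any 1 animal left out. Those of Esam and Pecam1 were each lost in 6 of the 8 fits, both of them without control animal 1 or 4 or Hira CKO animal 1, 2 or 4. Tie1 (-0.16), Cdh5 (-0.18) and Tek (0.11) were not called. By their brightest probe, 10.3% of all genes were called lower and 11.0% higher. The endothelial sums, from 57347 to 72546 in controls and from 41969.7 to 47555 in Hira CKO animals, did not overlap. Such a sum is weighted to the brightest probe, here Egfl7, with a mean of 30882 in controls and 19234 in Hira CKO animals. Of 7 lymphocyte markers, 3 were called higher, of which 1 (Cd3e) was kept without control animal 3 or Hira CKO animal 1, with sums from 2715 to 3937 and from 3698 to 5446. Of 7 macrophage markers 1 was called higher (Itgam, lost in 6 of the 8 fits) and 1 lower (Cx3cr1), with sums from 4601 to 7132 and from 4507 to 6552. None of 5 Schwann cell, 6 adipocyte or 2 blood markers was called by limma, with 0 at an unadjusted p under 0.05, and no marker of any list had a mean at or below 0. The part of these cells in the Rab values was not tested.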

How the data were processed

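Total RNA of 8 mice was labelled with Cy5 and hybridised on 24 arrays, per the labels' protocols. The deposited table holds linear intensity values that the authors had normalized, as judged from the values, with some below 0; the scanner and software are not given in the sources used here. Values below 0 were set to 0, 16 was added and log2 taken; each animal, taken as the replicate, was given the mean of its 3 arrays. The groups were compared with the linear model and moderated test of limma 3.58.1 (R 4.3.3) over 26423 probes with Benjamini-Hochberg adjustment and a threshold of 0.05. The number of animals limits the precision. The p-values and SEs set the difference between the groups against the spread between these animals, which limma draws toward the spread typical of all probes. Nothing in the sources used here gives litter, sex, slide or scan day, so a difference of the groups in these cannot be told apart from genotype.

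Platform symbols were updated to RefSeq. RAB1 was kept as given, since RefSeq lists it as a synonym of more than 1 gene. The 2 Rab3ip probes were left out by the rule, which sets symbols ending in IP aside as partners, and Rab12 and Rab42 were not analysed here. Where a family gene had several probes, each was counted, and partner lists used the brightest. Other probes of partner genes were given for only some genes. Among those not given above, a probe of Dennd1b (-0.71), of Tbc1d19 (-0.44) and of Tbc1d30 (-0.47) was called lower, and none higher. The brightest probes of these genes changed by 0.12, 0.37 and -0.34 and were not called. The family and all lists were chosen with earlier results of these data known. Named were all called Rab probes, Rabs of GLUT4 traffic, genes with 2 probes and the largest changes of partner lists; some uncalled members were named as paralogs after their values were seen. Protein sequences were not used here.

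Alternatives were pseudocounts of 1 and 50, the median of the arrays, array repeat 1 only, all arrays with the animal as a random block, no probes in the dimmest 30%, quantile normalization of log2 values, arrays centred on their median, eBayes with trend and robust settings, the animal number as a replicate block, and each animal left out.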

Additional observations from a re-analysis of the deposited data

Results flagged for a closer look

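In 3 of 130 groups of 4 animals, a family probe had an animal far from the other 3, with a gap that passed Dixon's 95% critical value on the log2 scale; chance gives about 1 in 20. For Rab11b, on its dimmer probe, control animal 3 was lowest at 4712, against 5298 to 5359 in the other controls, a gap of 0.839 of the range. For Rab30, a Golgi Rab, control animal 3 was lowest at 84.2, against 92.9 to 93.5, a gap of 0.941. For Rab26, a Rab of secretory granules, control animal 4 was highest at 258, against 195 to 202, a gap of 0.883. None of these probes was called by limma.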

How the results depend on the processing

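The counts of Rab probes besides Rab15, 6 called higher and 6 lower, moved most with the handling of the arrays, as did those over all probes. With all 24 arrays and the animal as a random block (consensus correlation 0.4015), 13 of the 64 were called higher (20.3%) and 10 lower (15.6%). Over all probes the shares were 13.6% and 13.8%. With array repeat 1 only, 3 were called lower, beside 6.32% of all probes. With that repeat alone the calls of Rab10, Rab22a, Rab3c and Rab3d were lost (limma, adjusted p from 0.0503 to 0.115). Leaving out an animal gave 3 to 9 Rab probes called higher, 3 being without control animal 3 (7.05% of all probes), and 4 to 7 called lower. Among partners 8 to 14 were called higher and 14 to 22 lower, 14 being without control animal 3 or Hira CKO animal 1. Over all probes, counted by probe while the partners are counted by gene, these fits called 6.97% to 9.97% higher and 6.88% to 9.46% lower. The median change of the family was 0.04 to 0.07 and Rab15 changed by 1.81 to 2.19 in these fits; it changed by 1.93 to 2.01 under the other settings. With the animal number as a replicate block, 7 Rab probes besides Rab15 were called higher and 7 lower, and 10 and 18 partners. Over all probes the shares were 9.48% and 9.16%. In that fit the Rab10 call was lost (limma, adjusted p = 0.0627). Same-numbered animals deviated together with correlations from -0.06 to 0.30, so the numbers were not taken as pairs, and not every animal correlated best with its own number. No called probe and no median changed sign; 14 uncalled Rab probes, with changes from -0.18 to 0.07, did under at least 1 alternative. Probes in the dimmest 30% of the array, 7 of the family, have signals nearest the background.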

Other observations

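The gene with the array symbol 5430435G22RIK is Rab7b in RefSeq, and its symbol on the platform left it outside the family. Its intensity was 832 ± 134 in controls and 1041 ± 192 in Hira CKO animals (SD, n = 4 each), a log2 change of 0.32 that limma did not call (adjusted p = 0.135).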
